A study of Mus musculus with 1646 samples.

Results

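The fibrillar collagens are described here in single cells of the mouse colon. The members were chosen by name: the 7 genes *Col1a1*, *Col1a2*, *Col3a1*, *Col5a1*, *Col5a2*, *Col5a3* and *Col11a1*, taken from 46517 genes counted in 1646 cells. The choice went by name, though earlier results of these data were known. The study had already named *Col1a1*, *Col1a2* and *Col5a1* among the fibroblast markers shared by its organs, colon included. Fibrillar collagens form the rope-like fibrils of connective tissue. Their chains fold into a triple helix in the endoplasmic reticulum, are secreted as procollagens, lose their end pieces outside the cell and are then packed and cross-linked. Type I (*Col1a1*, *Col1a2*) and type III (*Col3a1*) make up the bulk of the fibrils in the gut wall and around blood vessels, and a type I molecule holds more chains from *Col1a1* than from *Col1a2*. Type V (*Col5a1*, *Col5a2*, *Col5a3*) is a minor chain set that starts fibrils and limits their width, and *Col11a1*, known from cartilage, plays that part in type XI.

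Each library was 1 cell, sorted as negative for the endothelial protein CD31 from male mice aged 10 to 20 weeks on a C57Bl6/J background. A fluorescent protein under the control of *Pdgfrb*, *Acta2*, *Pdgfra* or *Cspg4* marked the sorted cells. PdgfrbGFP mice gave 46.2% of the cells (4 plates), Acta2GFP mice 34.4% (2 plates), PdgfraGFP mice, a nuclear GFP knock-in, 13.8% (2 plates) and Cspg4dsRED mice 5.53% (1 plate). Only the tissue of Acta2GFP mice was also digested with elastase, so that the line and this step cannot be told apart. No mouse carried a treatment, and the labels name no mouse, so that a reporter line counts as 1 sample, and p-values measure the spread between lines, which may be technical.

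The labels assign the cells to 8 clusters, and the names of these clusters are those of the study. Fibroblasts (1307 cells) were cluster 7 at the crypt base (13.5% of all cells), cluster 5 from base to middle (25.8%), cluster 1 in the middle (29.3%), cluster 6 from middle to apex (2.73%) and the sub-epithelial cluster 2 at the apex (7.96%). Mural cells, which wrap vessels or contract, were pericytes (cluster 4, 8.63%), vascular smooth muscle cells (VSMC, cluster 3, 8.57%) and interstitial smooth muscle cells (cluster 8, 3.40%). For the 2 classes the markers went with these names: the fibroblast markers *Pdgfra*, *Dcn*, *Lum* and *Dpt* summed to 3430 to 5224 counts per 500000 in the fibroblasts of the 4 lines and to 158.3 to 834 in the mural cells of 3 lines, and the smooth muscle markers *Acta2*, *Myh11*, *Tagln* and *Cnn1* to 5087 to 8244 in VSMC. The apex cluster 2 went with the fibroblast name only in part, since its fibroblast markers summed to 1520 to 2184. Cluster 6 was near it, at 1881 to 2612, and clusters 1, 5 and 7 had 3509 to 7365. In cluster 2 *Pdgfra* was high (mean of 1042, beside 16.1 in pericytes), and *Dpt* too was above its level in pericytes. But *Dcn* was at 273.3, below the 694 of pericytes and the 399.2 of interstitial smooth muscle cells, and *Lum* at 82.9, beside 73.3 and 101.1. Cluster 6 stood apart among the fibroblasts, with 590 to 1775 counts per 500000 of these smooth muscle markers in its 2 lines, beside 11.03 to 319.4 in the other fibroblast clusters and 1412 to 2143 in pericytes. Epithelial, immune and glial markers were under 6 counts per 500000 in every line and class, the endothelial markers *Pecam1* and *Cdh5* summed to at most 13.2 and the mesothelial markers *Msln* and *Upk3b* had no count, where the study had already removed cells with endothelial or immune signatures. A cell had 47598 to 1494292 counts on genes (median 248628). Since the study clustered the cells on these very counts, no test between clusters is independent of how the classes arose.

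Of the 7 members, 6 were seen in 71.7% to 99.6% of all cells. *Col5a3* had the lowest of these shares and was seen in only 17.9% of cluster 8 cells. *Col3a1*, on chromosome 1 from 45311538 to 45349706 of GRCm38 on the plus strand, had 2155442 counts and was seen in 1640 of 1646 cells. *Col1a1*, on chromosome 11 from 94936224 to 94953042 (plus), had 1773942 counts in 1633 cells. *Col1a2*, on chromosome 6 from 4504814 to 4541544 (plus), had 1631122 counts in 1639 cells. The type V genes were lower, with 345082 counts for *Col5a2* (chromosome 1, 45374321 to 45503282, minus), 222040 for *Col5a1* (chromosome 2, 27886425 to 28039514, plus) and 87402 for *Col5a3* (chromosome 9, 20770050 to 20815067, minus). *Col3a1* and *Col5a2* are neighbours that face each other, with 24614 bases between their ends. The 7 genes took 1.14% of all counts on genes.

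*Col11a1* (chromosome 3, 114030540 to 114220718, plus) was all but absent from the libraries, with 6 counts in 6 cells, 1 count each. Of these cells 3 were in cluster 1 and 1 each in clusters 3, 5 and 7. No apex fibroblast had a count, which allows a share of up to 2.29% of cells with a count (the limit of 3 counts over the cells), and no pericyte did, which allows up to 2.11%. The upper ends of the 95% Clopper-Pearson intervals were 2.78% and 2.56%. *Col11a1* passed the filter on low counts in no comparison and was not tested.

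Promoter sequences are shown for *Col3a1*, *Col5a1* and *Col5a3*, whose order of levels differed between the clusters. A RefSeq promoter was found for 5 of the 7 members, and the 250 bases before the start (build GRCm38.p6) are given for *Col3a1* (chr1:45311288-45311537, plus strand), *Col5a1* (chr2:27886175-27886424, plus strand) and *Col5a3* (chr9:20815068-20815317, minus strand). Capitals mark matches, on either strand, to the TATA box (TATAAA), the CCAAT box, the GC box (GGGCGG) and an E-box (CAGCTG), none of which overlap in these windows.
Col3a1: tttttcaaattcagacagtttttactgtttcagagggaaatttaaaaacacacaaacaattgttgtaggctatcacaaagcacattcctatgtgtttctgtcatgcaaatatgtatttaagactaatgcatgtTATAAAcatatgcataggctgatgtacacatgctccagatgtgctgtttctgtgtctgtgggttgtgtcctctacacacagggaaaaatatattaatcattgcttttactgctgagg
Col5a1: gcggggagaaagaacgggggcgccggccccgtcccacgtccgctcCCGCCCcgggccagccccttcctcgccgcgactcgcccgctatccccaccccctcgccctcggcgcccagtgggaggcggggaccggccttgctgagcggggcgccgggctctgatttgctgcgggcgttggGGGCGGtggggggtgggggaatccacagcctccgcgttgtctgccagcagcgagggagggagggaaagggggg
Col5a3: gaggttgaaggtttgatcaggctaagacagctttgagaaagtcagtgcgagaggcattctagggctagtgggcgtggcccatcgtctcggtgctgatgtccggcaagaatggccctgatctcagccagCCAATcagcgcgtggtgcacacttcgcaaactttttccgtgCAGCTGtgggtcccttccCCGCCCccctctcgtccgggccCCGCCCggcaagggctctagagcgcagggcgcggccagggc
The *Col3a1* window was 35.2% G or C, with 1 TATA box, and the *Col5a1* window was 76.4% G or C, with 2 GC boxes and none of the other motifs. *Col5a3* lay between them, at 62.8%, with 1 CCAAT box, 2 GC boxes and 1 E-box. Of the 32851 promoters of the table, the same window held the TATA box in 12.4%, the CCAAT box in 33.8%, the GC box in 32.7% and the E-box in 13.001%. A match is only a match of letters.

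In fibroblasts, the genes of types I and III had the highest levels and those of type V lay far below them. A level is the number of counts per 500000 of a cell's counts, first averaged within each line that has 10 or more cells of the class and then over lines (mean ± SD). Per kb of exon, which allows genes to be compared, the fibroblasts of the 4 lines had 298.3 ± 60.3 for *Col1a1*, 253.7 ± 32.997 for *Col3a1* and 145.01 ± 26.5 for *Col1a2*, and then 36.9 ± 4.38 for *Col5a2*, 27.5 ± 6.71 for *Col5a1* and 11.4 ± 1.71 for *Col5a3* (all SD, n = 4 lines). *Col3a1* was below *Col1a1* in all 4 lines, with a ratio per kb of 0.747 to 0.922. *Col1a2* to *Col1a1*, as a ratio of counts per kb, was 0.483 ± 0.0178 (SD, n = 4 lines) and between 0.463 and 0.504 in every line. The order was another one in each mural cluster. In pericytes (2 lines) *Col3a1* led with 102.9 ± 12.5 per kb, above *Col1a1* at 65.2 ± 7.88, and *Col5a3* at 26.4 ± 4.81 was the highest of the type V genes by mean, with 18.5 for *Col5a2* and 10.5 ± 4.16 for *Col5a1*. A few cells carried that rank: in counts per 500000 the median pericyte had 60.9 of *Col5a2* and 3.15 of *Col5a3*. The mean counts per 500000 were near each other, at 179.5 for *Col5a3* and 177.3 for *Col5a2*. In PdgfrbGFP mice *Col5a3* was the lower, at 156.3 beside 177.1. In interstitial smooth muscle cells (1 line) *Col3a1* had 155.4, *Col1a1* 81.5, *Col1a2* 61.2 and *Col5a2* 22.6 per kb, with *Col5a1* at 4.58 and *Col5a3* at 2.02. In VSMC (3 lines) *Col1a1* had 18.1 ± 7.45 per kb, *Col1a2* 15.6 ± 3.29 and *Col3a1* 9.44 ± 7.66, and the 3 type V genes had 0.905 to 1.56.

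**Figure D1:**
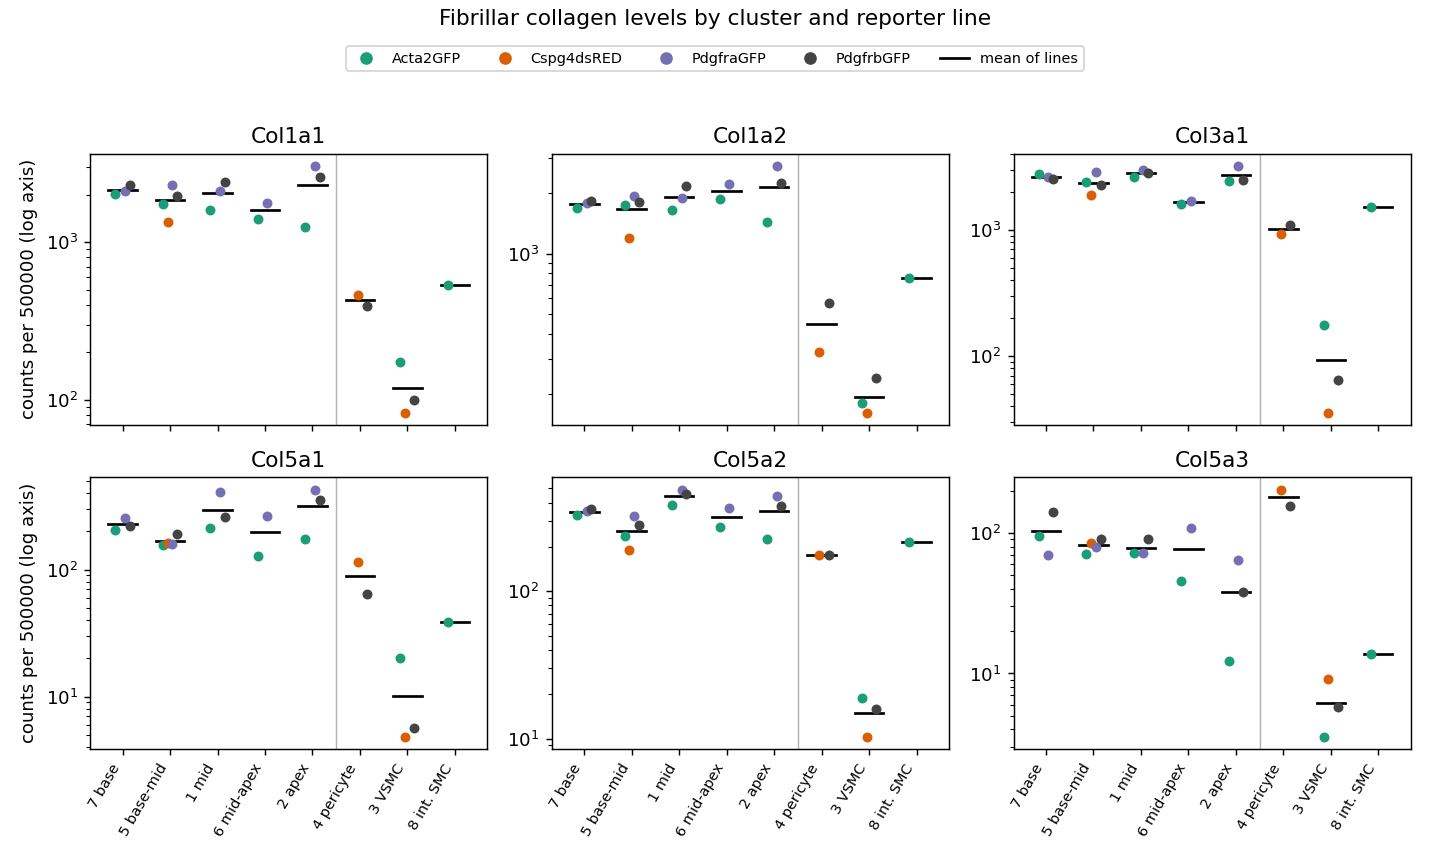
Level of 6 members (counts per 500000, log axis) in the 5 fibroblast clusters, ordered from crypt base to apex, and, right of the grey line, the 3 mural clusters. Each point is 1 reporter line with at least 10 cells of the cluster and the bar is the mean of the lines. All 6 members are lowest in VSMC, and *Col5a3* alone has its highest points in pericytes.

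The first comparison asks how far the fibrillar collagens separate fibroblasts from mural cells. Of the 6 members tested, 5 were higher in fibroblasts and *Col5a3* did not pass, while 6.57% of the 19173 genes tested were called in either direction. The median log2 fold change was 2.13 over the 6 members and -0.03 over all genes tested. *Col3a1*, the type III chain, had 2562, 2047, 2825 and 2529 counts per 500000 in the fibroblasts of Acta2GFP, Cspg4dsRED, PdgfraGFP and PdgfrbGFP mice, and 1047, 500, and 654 in the mural cells of Acta2GFP, Cspg4dsRED and PdgfrbGFP mice. The groups did not overlap, and the log2 fold change was 2.00 ± 0.287 (SE, edgeR quasi-likelihood test, adjusted p = 0.00378). *Col5a2*, the second type V chain, had 313.5 to 406.1 counts per 500000 in fibroblasts against 97.9 to 151.5 in mural cells (log2 fold change 1.92 ± 0.262 SE, edgeR, adjusted p = 0.00308). *Col1a1* (log2 fold change 2.82), *Col5a1* (2.74) and *Col1a2* (2.26) were also higher, with edgeR adjusted p of 0.000567, 0.000604 and 0.00149.

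Within plates, where both classes shared a sequencing lane, *Col1a1*, *Col1a2*, *Col3a1*, *Col5a1* and *Col5a2* were higher in fibroblasts on 7 of 7 plates with at least 3 cells of each class. The log2 ratio of the levels was 1.81 to 3.16 for *Col1a1*, 1.18 to 2.25 for *Col3a1* and 0.796 to 2.07 for *Col5a2*. *Col5a3*, the third type V chain, was higher in fibroblasts on 5 of 7 plates, with log2 ratios from -0.72 to 3.69. It had 67.1 to 93.9 counts per 500000 in the fibroblasts of the 4 lines, and in mural cells 16.2 in Acta2GFP, 88.1 in PdgfrbGFP and 110.5 in Cspg4dsRED mice, so that the groups overlapped (log2 fold change 0.59 ± 0.571 SE, edgeR, adjusted p = 0.664). The mural cells of the lines were mixed differently: those of Acta2GFP mice were 29 VSMC, 52 interstitial smooth muscle cells and 3 pericytes, and those of Cspg4dsRED mice 30 VSMC and 33 pericytes. Without the PdgfrbGFP line, 3 members remained called (*Col1a1*, *Col1a2* and *Col5a1*), beside 1.81% of all genes tested in place of 6.57%.

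The separation depended on the kind of mural cell, in fits added after the data had been seen that set all fibroblasts against 1 mural cluster at a time. Against VSMC, all 6 members were higher in fibroblasts (13.5% of all genes called in either direction), by log2 fold changes from 3.07 for *Col1a2* to 4.89 for *Col5a1* (edgeR, adjusted p at most 0.000959). Against pericytes, where 3.14% of all genes were called, *Col1a1* (2.46), *Col1a2* (2.07), *Col5a1* (1.88) and *Col3a1* (1.37) were higher, with edgeR adjusted p from 0.00244 to 0.0208, *Col5a2* had a log2 fold change of 1.18 and an edgeR adjusted p of 0.0502, and *Col5a3* had -0.91 ± 0.308 (SE, edgeR, adjusted p = 0.172). Against interstitial smooth muscle cells, where 1.83% of all genes were called, *Col5a3* (2.50), *Col5a1* (2.196) and *Col1a1* (1.75) were higher, with edgeR adjusted p from 0.0296 to 0.0367. *Col1a2* (1.08), *Col5a2* (0.56) and *Col3a1* (0.50) did not pass there, with edgeR adjusted p of 0.0716, 0.364 and 0.286. The interstitial cells formed 1 sum, which the fit takes to vary as the other sums do.

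**Figure D2:**
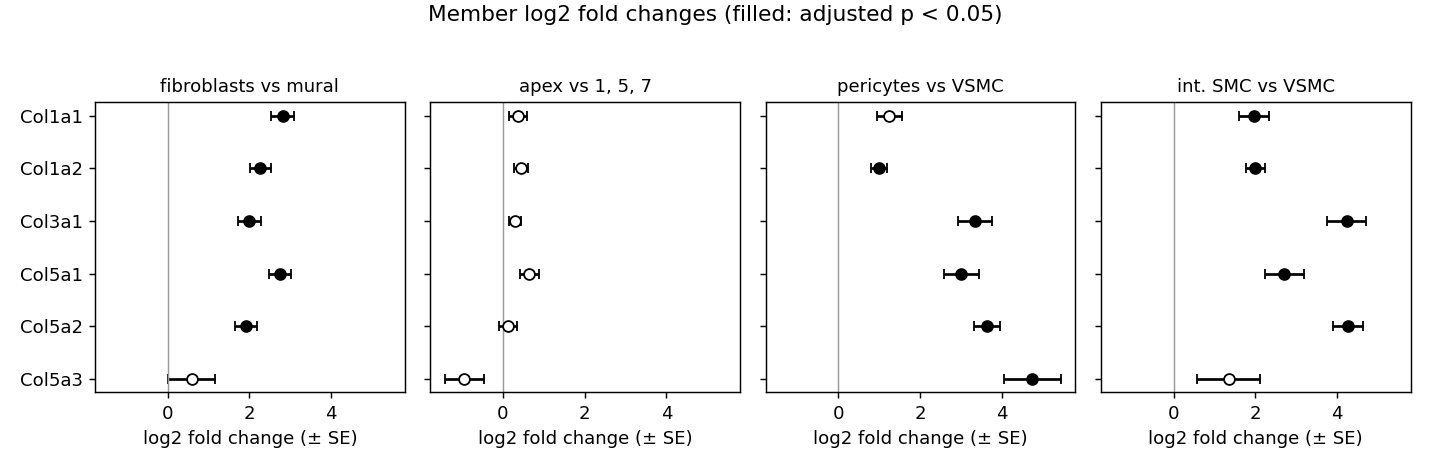
Log2 fold change of 6 members (rows) in 4 comparisons (panels), with bars of 1 standard error from edgeR. Filled points have an adjusted p under 0.05: 5 of 6 for fibroblasts against mural cells, none for apex fibroblasts against clusters 1, 5 and 7, and 5 of 6 in each comparison with VSMC, with *Col5a3* the furthest from 0 in pericytes.

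Pericytes wrap capillaries and VSMC the larger vessels, and the second comparison set them against each other in a fit of all clusters. By mean level, all 3 type V genes and *Col3a1* were far higher in pericytes, and the type I genes less so. Of 6 members, 5 were called, all higher in pericytes, against 0.819% of the 21739 genes tested, and the median log2 fold change was 3.18 over the members and 0.00 over all genes. *Col5a3* had 202.7 counts per 500000 in the pericytes of Cspg4dsRED and 156.3 in those of PdgfrbGFP mice, and 9.19, 5.74 and 3.55 in the VSMC of Cspg4dsRED, PdgfrbGFP and Acta2GFP mice. The groups lay more than an order of magnitude apart, and the log2 fold change was 4.75 ± 0.703 (SE, edgeR, adjusted p = 0.00109). *Col5a2* had 177.5 and 177.1 in pericytes and 10.3 to 18.9 in VSMC (3.65 ± 0.321 SE, edgeR, adjusted p = 4.63e-06). *Col3a1* had 923 and 1097 in pericytes and 35.6 to 177.9 in VSMC (3.35 ± 0.417 SE, edgeR, adjusted p = 0.000359).

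*Col5a1* followed, with 63.7 and 113.7 counts per 500000 in pericytes and 4.83 to 20.0 in VSMC (log2 fold change 3.01 ± 0.424 SE, edgeR, adjusted p = 0.000811). A few cells carried the *Col5a1* level: the 15 highest pericytes held 67.3% of it, the median cell had 1.32 counts per 500000 in pericytes and 0.740 in VSMC, and the medians averaged over lines turned the direction (0.659 and 2.02). *2810430I11Rik*, on the opposite strand across the start of *Col5a1*, shares 99 exonic bases with it, and reads there cannot be assigned without the strand. Its counts came to 39.6% of those of *Col5a1* in VSMC and to 0.847% in pericytes. *Gm13372*, also on the opposite strand, overlaps exons of *Col5a1* too and came to 1.97% and 4.22%. Of the type I genes, *Col1a2* was higher by 0.99 ± 0.200 (SE, edgeR, adjusted p = 0.0189), with 324.5 and 569.8 in pericytes and 161.98 to 240.2 in VSMC. It was called in 6 of 11 alternatives and not with ERCC scaling, with at least 3 cells per sum or without the Acta2GFP, PdgfraGFP or PdgfrbGFP line (edgeR, adjusted p of 0.790, 0.0941, 0.149, 0.0516 and 0.389). *Col1a1* had 391.3 and 464.5 in pericytes and 82.7 to 174.5 in VSMC, and its log2 fold change of 1.25 ± 0.305 missed the threshold (SE, edgeR, adjusted p = 0.0605). It was called in 4 of 11 alternatives, by DESeq2 (adjusted p = 0.0277), which called all 6 members beside 7.66% of all genes, and by edgeR with no filter, with plates as samples and without the Acta2GFP line (edgeR, adjusted p of 0.0278, 0.000984 and 0.00100). On the 4 plates with at least 3 cells of each kind, every one of the 6 members was higher in pericytes than in VSMC, with log2 ratios of 2.41 to 7.54 for *Col5a3* and 0.379 to 1.42 for *Col1a2*. The fibroblast markers moved with these genes: *Pdgfra*, *Dcn*, *Lum* and *Dpt* summed to 273.9 and 1377 counts per 500000 in the pericytes of the 2 lines and to 31.2 to 549 in the VSMC of the 3. Over the VSMC of a line, Spearman's rho with that sum was 0.584 to 0.902 for *Col3a1*, 0.307 to 0.874 for *Col5a2* and -0.24 to 0.702 for *Col5a3* (3 lines of 29 to 82 cells). Over pericytes it was 0.145 and 0.386 for *Col3a1*, -0.20 and 0.138 for *Col5a2* and 0.0236 and -0.0571 for *Col5a3* (Cspg4dsRED and PdgfrbGFP mice). The cells of a line share plates and vary in depth. The part of these markers in the result was not tested. Without the PdgfrbGFP line, which leaves 1 sum of pericytes, only *Col5a2* remained called, beside 0.226% of all genes tested in place of 0.819%, with log2 fold changes of 4.91 for *Col5a3* and 2.89 for *Col3a1*.

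Scaling to the spiked-in ERCC RNAs in place of TMM lowered the median of all genes in pericytes against VSMC by 0.69 on the log2 scale and turned the share of higher calls from 75.8% to 29.5%. Relative to that median, *Col5a3* was at 4.69, *Col5a2* at 3.51, *Col3a1* at 3.20 and *Col5a1* at 2.86, and all 4 stayed called as fitted, whereas *Col1a2* (0.22 as fitted) did not (edgeR, adjusted p = 0.790). For fibroblasts against mural cells the same scaling raised the median by 0.40 and took the share of higher calls from 48.8% to 63.6%, with all 5 members still called.

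Interstitial smooth muscle cells, which lie outside vessels, carried a high level of type III and of *Col5a2* but hardly any *Col5a3*. Against VSMC, 5 of 6 members were called, all higher, against 1.01% of all genes tested, in a fit where the interstitial cells gave 1 sum. The 52 interstitial cells of Acta2GFP mice had 1526 counts per 500000 of *Col3a1* and the 29 VSMC of the same line 177.9, which is the highest of the 3 VSMC values (log2 fold change 4.23 ± 0.471 SE, edgeR, adjusted p = 9.69e-05). For *Col5a2* they had 216.5 and 18.9 (4.27 ± 0.359 SE, edgeR, adjusted p = 3.71e-06), for *Col1a1* 534.6 and 174.5 (1.97 ± 0.360 SE, edgeR, adjusted p = 0.00601). *Col5a3* had 13.7 and 3.55 and did not pass (1.35 ± 0.779 SE, edgeR, adjusted p = 0.677). The levels printed here are those of Acta2GFP mice, whereas the fold changes are from the fit against the VSMC of 3 lines. They are thus not the comparison within 1 line. Of the 56 cells of the cluster, 52 came from the line with elastase digestion, so that line and cell type cannot be told apart beyond the comparison within that line. They formed 1 sum, so these p-values rest on the spread of the other clusters' sums, which it is taken to share. The other 4 cells came from PdgfrbGFP mice and were under the minimum of 10. With at least 3 cells per sum, they formed a second sum and the same 5 members were called, beside 1.92% of all genes (log2 fold change 4.18 for *Col3a1* and 4.69 for *Col5a2*, edgeR, adjusted p of 8.83e-08 and 6.29e-08). The mean levels of the 2 lines were then 1379 for *Col3a1*, 298.6 for *Col5a2* and 9.10 for *Col5a3*. Without the PdgfrbGFP line 3 members were called (*Col3a1*, *Col5a2* and *Col1a2*), beside 0.485% of all genes. With ERCC scaling, which lowered the median of all genes by 0.59 on the log2 scale and under which 75.9% of calls were higher in place of 87.2%, only *Col3a1* and *Col5a2* stayed called, beside 0.534% of all genes. DESeq2 gave 46.4% of its calls as higher there, and 53.4% in pericytes against VSMC.

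The cells within a mural cluster were far from uniform. *Col5a3* was seen in 66.2% of pericytes (95% Clopper-Pearson interval 57.8 to 73.9, counting error only), but in the median pericyte it was at 3.15 counts per 500000 and in the highest at 2762, and the 15 highest pericytes held 62.6% of the summed level. In VSMC 38.3% of cells had a count (30.2 to 46.9), at a median depth of 359677 counts beside 209805 in pericytes. After each cell was thinned to 50000 counts, which leaves out 11 shallower cells, the shares were 47.9% and 9.29%. *Col1a1* was uneven in pericytes too, with 56.8% of the summed level in the 15 highest cells, a median of 37.5 (36.1 in VSMC), a 75th percentile of 549 and a 90th of 1394. Its medians averaged over lines were 29.9 in pericytes and 56.7 in VSMC, the other way round from the means. *Col3a1* had its median at 915 in pericytes and at 18.2 in VSMC, and the interstitial cells were the most even of the mural cells for it, from 863 at the 10th percentile to 2496 at the 90th. In fibroblasts every cell had counts of *Col1a1*, *Col1a2* and *Col3a1*, and *Col5a3* was seen in 1023 of 1307 (78.3%, 75.9 to 80.5), with a median of 9.79.

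**Figure D3:**
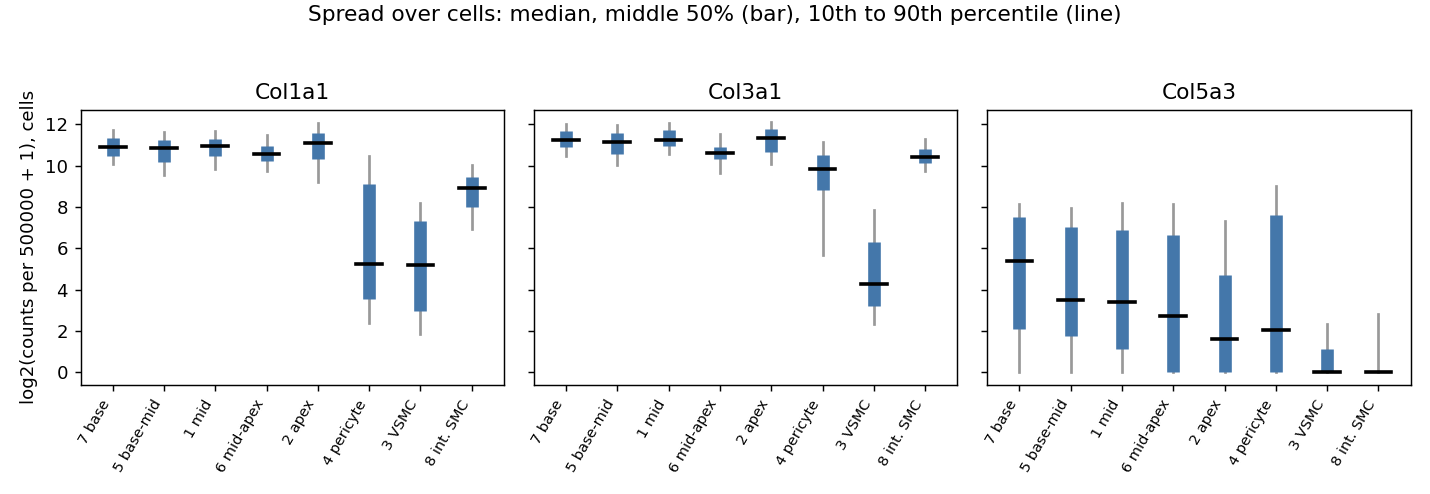
Spread of *Col1a1*, *Col3a1* and *Col5a3* over the cells of each cluster, as log2(counts per 500000 + 1): black bar median, blue bar the middle 50% of cells, grey line the 10th to the 90th percentile. *Col1a1* and *Col3a1* are narrow in the 5 fibroblast clusters and *Col1a1* is wide in pericytes, and *Col5a3* spans from 0 to its highest values in pericytes and in most fibroblast clusters.

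The third set of comparisons followed the fibroblasts along the crypt. No member passed between any of the fibroblast clusters compared. Apex fibroblasts (cluster 2, 3 lines) against clusters 1, 5 and 7 (4 lines) gave 0 of 6 members called by edgeR and 0 by DESeq2, with 2 at an unadjusted p under 0.05 (*Col5a1* and *Col1a2*), while 7.26% of the 15893 genes tested were called by edgeR and 15.9% by DESeq2. The edgeR share varied with the lines and was 1.18% without Acta2GFP, 3.69% without PdgfraGFP and 4.42% without PdgfrbGFP, and the share of higher calls went from 48.2% to 76.6%, 62.3% and 44.5%, with 0 members called in each. *Col5a1* had 175.1, 425.4 and 354.1 counts per 500000 at the apex of Acta2GFP, PdgfraGFP and PdgfrbGFP mice and 194.5 to 281.3 in clusters 1, 5 and 7 (log2 fold change 0.64 ± 0.232 SE, edgeR, adjusted p = 0.146). *Col5a3* had 12.3, 64.4 and 38.1 at the apex of the same lines and 78.7, 75.1 and 97.7 in their clusters 1, 5 and 7, lower at the apex in 3 of 3 lines and on 6 of 7 plates (log2 fold change -0.95 ± 0.481 SE, edgeR, adjusted p = 0.322). *Col1a1* (0.36 ± 0.225), *Col3a1* (0.29 ± 0.144) and *Col5a2* (0.12 ± 0.209, all SE) had edgeR adjusted p from 0.304 to 0.830. With plates in place of lines as the samples, though plates of a line are not separate lines, *Col5a1* (0.80) and *Col1a2* (0.58) were called, beside 12.1% of all genes.

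Between the neighbouring clusters, too, 0 members were called by edgeR and by DESeq2, which does not show that their levels were alike. Over all genes DESeq2 called 3.57% in cluster 1 against 7, 10.7% in cluster 6 against 1 and 11.7% in cluster 2 against 6. Cluster 1 against cluster 7 had log2 fold changes from -0.43 (*Col5a3*) to 0.31 (*Col5a1*), with 0 at an unadjusted p under 0.05 and 0.488% of all genes called. Cluster 6 against cluster 1 had -0.83 (*Col5a1*) to 0.07 (*Col5a3*), with 0 at an unadjusted p under 0.05 and 0.791% of all genes called. The smooth muscle markers, higher in cluster 6 as given above, moved with this comparison, and their part in it was not tested. Its median over all genes was itself at -0.47, beside -0.28 for the members. Cluster 2 against cluster 6 had -1.02 ± 0.640 (SE, *Col5a3*) to 1.12 ± 0.431 (SE, *Col5a1*), with 1 at an unadjusted p under 0.05 (*Col5a1*) and 0.957% of all genes called. The smooth muscle markers differed there too, at 102.1 to 319.4 in cluster 2 and 590 to 1775 in cluster 6, and their part was not tested. In levels, *Col3a1* was at 2799 ± 163.4 in the middle cluster 1, 2711 ± 429.1 at the apex, 2631 ± 118.6 at the base and 2358 ± 401.4 (SD) from base to middle, and at 1647 ± 78.9 (SD, n = 2 lines) in cluster 6, whose 2 lines were under every line of the other fibroblast clusters. For *Col1a1* the 5 clusters lay between 1590 ± 267.2 (cluster 6) and 2292 ± 939 (cluster 2), and no neighbours in that order differed beyond their spread.

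Within plates, the ratios among type V chains differed at the apex. Chain ratios were taken from counts per kb summed within each plate and compared within plates by an exact sign-flip permutation test, with p adjusted over the 10 ratios tested. The 7 plates came from 3 lines, and plates of a line may share mice, so these p-values measure the spread between plates. *Col5a3* to *Col5a1* was 0.115 ± 0.0806 at the apex and 0.454 ± 0.103 in clusters 1, 5 and 7 (SD, n = 7 plates), and lower at the apex on 7 of 7 plates (mean log2 difference -2.61 ± 2.12 SD, exact permutation test, two-sided, p = 0.0156, the smallest 7 plates can give, adjusted p = 0.0312). *Col5a2* to *Col5a1* was 0.963 ± 0.258 at the apex and 1.45 ± 0.114 elsewhere, again lower on 7 of 7 plates (-0.63 ± 0.386 SD, exact permutation test, two-sided, p = 0.0156, adjusted p = 0.0312). *Col1a2* to *Col1a1* (0.13 ± 0.209, adjusted p = 0.223), *Col3a1* to *Col1a1* (-0.06 ± 0.279, adjusted p = 0.694) and type V to type I (0.01 ± 0.320, adjusted p = 0.938, all SD, exact permutation test, n = 7 plates) did not pass.

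With 1 value per line, added after the data had been seen, *Col5a3* to *Col5a1* was 0.0644, 0.206 and 0.119 at the apex of Acta2GFP, PdgfraGFP and PdgfrbGFP mice and 0.516, 0.355 and 0.511 in their clusters 1, 5 and 7. *Col5a2* to *Col5a1* was 1.06, 1.01 and 0.893 at the apex and 1.45, 1.33 and 1.39 in the other clusters. Both were lower at the apex in 3 of 3 lines, where the exact permutation test can give no p under 0.25.

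The apex ratios rest on few cells on some plates. With at least 10 cells per sum, 5 plates were left and both ratios had an adjusted p of 0.104 (exact permutation test). Nor did they pass after adjustment when any 1 plate was left out. The widest difference for *Col5a3* to *Col5a1*, -6.87 on the log2 scale, came from a plate with 4 apex cells, and without it the mean was -1.90. When each cell was scaled before averaging, *Col5a3* to *Col5a1* was lower at the apex on 7 of 7 plates and *Col5a2* to *Col5a1* on 5 of 7, with adjusted p of 0.0781 and 0.104 (exact permutation test).

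**Figure D4:**
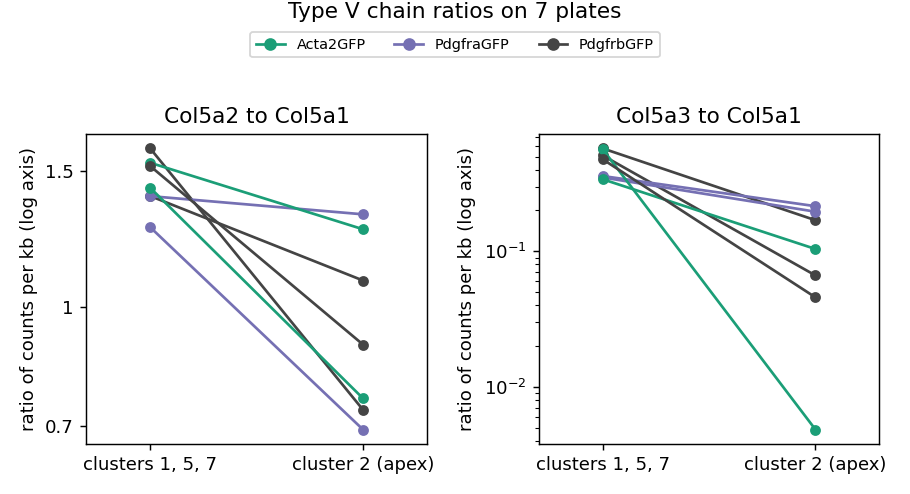
Ratio of *Col5a2* to *Col5a1* (left) and of *Col5a3* to *Col5a1* (right), in counts per kb on log axes, in clusters 1, 5 and 7 and in the apex cluster 2. Each line joins the 2 values of 1 plate (n = 7 plates) and its colour gives the reporter line. All 7 lines fall toward the apex in both panels.

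Chain ratios also differed between fibroblasts and mural cells within plates. *Col3a1* to *Col1a1* was 0.829 ± 0.119 in fibroblasts and 1.37 ± 0.372 in mural cells (SD, n = 7 plates), lower in fibroblasts on 7 of 7 plates (mean log2 difference -0.69 ± 0.325 SD, exact permutation test, two-sided, p = 0.0156, adjusted p = 0.0312). *Col1a2* to *Col1a1* was 0.491 ± 0.0482 and 0.733 ± 0.156 (-0.56 ± 0.285 SD, lower on 7 of 7 plates), and *Col5a2* to *Col5a1* was 1.37 ± 0.227 and 2.92 ± 1.27 (-1.004 ± 0.604 SD, lower on 7 of 7 plates), both with an adjusted p of 0.0312 (exact permutation test). *Col5a3* to *Col5a1* was lower in fibroblasts on 4 of 7 plates (-0.77 ± 1.94 SD, exact permutation test, adjusted p = 0.371), and in mural cells it ranged from 0.177 to 3.04 between plates. Type V to type I (-0.55 ± 0.638 SD) had an adjusted p of 0.104 (exact permutation test, n = 7 plates). When each cell was scaled before averaging, *Col3a1* to *Col1a1*, *Col1a2* to *Col1a1* and *Col5a2* to *Col5a1* each had an adjusted p of 0.0781 (exact permutation test). *Col1a2* to *Col1a1* and *Col5a2* to *Col5a1* were then each higher in fibroblasts on 1 of 7 plates. The mural clusters went apart: *Col3a1* to *Col1a1* was 0.361 ± 0.158 in VSMC (SD, n = 3 lines), below every fibroblast line (0.747 to 0.922), and 1.72 ± 0.250 in pericytes (SD, n = 2 lines) and 1.93 in interstitial smooth muscle cells (1 line), above them all. *Col1a2* to *Col1a1* was 0.905 ± 0.471 in VSMC (SD, n = 3 lines), with 1 line below the fibroblasts' lowest. *Col5a2* to *Col5a1* was 2.30 ± 0.739 in pericytes (SD, n = 2 lines), 4.26 in interstitial smooth muscle cells and 1.60 ± 0.731 in VSMC (SD, n = 3 lines), where it overlapped with fibroblasts. By cluster, type V to type I was 0.563 ± 0.152 in pericytes (SD, n = 2 lines), 0.227 in interstitial smooth muscle cells (1 line), 0.0833 ± 0.00991 in VSMC (SD, n = 3 lines) and 0.185 ± 0.00819 in fibroblasts (SD, n = 4 lines).

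No member differed between reporter lines past the threshold. Within cluster 1, sums per plate of Acta2GFP and of PdgfraGFP cells were each compared with the same PdgfrbGFP plates, so that the comparisons share them. In both, edgeR called 0 members and 0% of the 15700 genes, with 0 members at an unadjusted p under 0.05, and DESeq2 called 0 members. Over all genes 2.77% and 6.75% had an unadjusted p under 0.05 and DESeq2 called 26 and 420. The members' log2 fold changes were -0.47 ± 0.298 (SE, *Col1a1*) to -0.04 ± 0.331 (SE, *Col3a1*) for Acta2GFP and -0.60 ± 0.355 (SE, *Col5a3*) to 0.38 ± 0.263 (SE, *Col5a1*) for PdgfraGFP.

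Over single fibroblasts, types I and III went together and type V did so weakly. Within 11 sets of fibroblasts of 1 cluster and line (clusters 1, 2, 5 and 7, at least 30 cells each), the mean Spearman's rho was 0.639 for *Col1a1* with *Col1a2*, 0.633 for *Col1a1* with *Col3a1* and 0.621 for *Col1a2* with *Col3a1*, and each of the 3 pairs was at least 0.414 in every set. *Col5a2* had 0.258 to 0.317 with these 3 genes, *Col5a1* 0.190 to 0.207 and *Col5a3* 0.0480 to 0.0973. Among type V genes the means were 0.102 to 0.170. The cells of a set share plates and vary in depth, and type V counts are lower and so noisier, so these values are a description across cells.

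**Figure D5:**
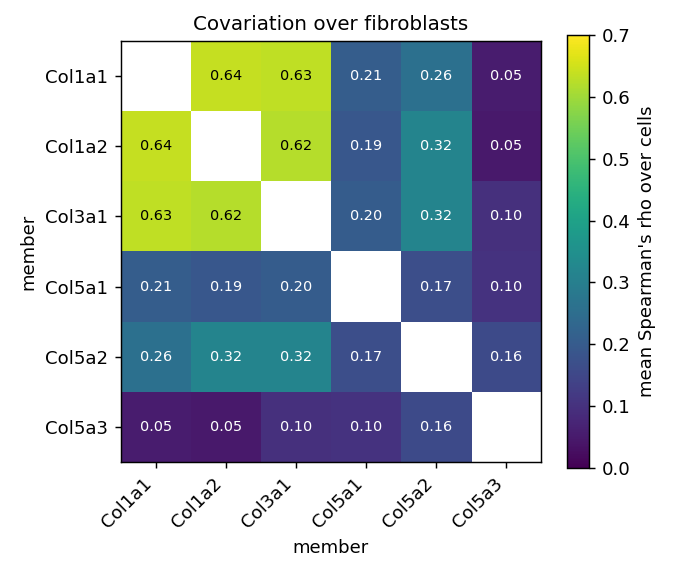
Mean Spearman's rho between pairs of members (rows and columns) over the cells of 11 sets of fibroblasts of 1 cluster and line, with the colour scale from 0 to 0.7. The 3 pairs among *Col1a1*, *Col1a2* and *Col3a1* stand at 0.62 to 0.64 and every pair with a type V gene at 0.32 or lower.

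Over the 21 sums of 1 cluster and line, the patterns most like each member were sought among 21739 genes by Pearson's r of log2(CPM + 1). For *Col1a1* the nearest genes outside the members were *Ssc5d* (r = 0.976), *Ptges* (0.947), *Gm47302* (0.947), *Mmp2* (0.947) and *Tgfbr2* (0.946). For *Col3a1* they were *Gm47302* (0.993), *Nav1* (0.974), *Loxl2* (0.967), *Hic1* (0.959) and *Mmp2* (0.955). *Gm47302* is annotated as a miRNA gene that lies wholly within an exon of *Col3a1* on the same strand, so that its counts and those of *Col3a1* may come from the same transcripts. For *Col5a3* they were *Man1c1* (0.848), *Epb41l2* (0.840), *Marcks* (0.834), *Sptbn1* (0.812) and *Cmtm3* (0.811). Among the members, *Col1a1* and *Col1a2* had r = 0.976, *Col3a1* and *Col5a2* 0.974 and *Col5a3* 0.584 to 0.734 with the other 5. The sums share lines and depth, and fibroblast clusters make up most of them.

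The genes that fold, secrete, trim, cross-link and bind fibrillar collagens were followed as a list of 57. For fibroblasts against mural cells, 56 were tested, 20 were higher and 3 lower in fibroblasts (41.1% called, beside 6.57% of all genes), with a median log2 fold change of 1.26. Of the 7 tested genes for removal of the end pieces, 5 were higher and 0 lower, among them *Adamts3*, a procollagen N-proteinase (7.33 ± 1.14 SE, edgeR, adjusted p = 0.00557). *P4ha3*, a prolyl 4-hydroxylase subunit, rose by 5.39 (edgeR, adjusted p = 0.0149) and *Colgalt2*, which adds galactose to hydroxylysine, by 5.05 (edgeR, adjusted p = 0.0154). The 3 lower genes were *Itga10* (-4.38) and *Itga1* (-3.42), collagen-binding integrin subunits, and *P3h2*, a prolyl 3-hydroxylase (-3.72), with edgeR adjusted p of 0.0220, 0.00171 and 0.00160. None of the 6 secretion genes was called (edgeR), with a median of 0.50.

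At the apex 0 members passed, and of this list some genes did. Of 56 list genes tested against clusters 1, 5 and 7, 6 were higher and 11 lower (30.4% called, beside 7.26% of all genes), with 0 of 6 secretion genes and 3 of 18 folding genes called. *Mmp13*, a collagenase, was higher by 9.33 ± 0.811 (SE, edgeR, adjusted p = 0.000338), *P3h2* by 4.49 (edgeR, adjusted p = 0.0162) and *Adamts3* by 2.37 (edgeR, adjusted p = 0.0378). Lower were *P4ha3* (-6.12), *Pcolce2*, an enhancer of procollagen C-proteinase (-5.06), and *Col14a1*, a collagen of the fibril surface (-5.03, edgeR, adjusted p of 0.0207, 0.0133 and 0.0151). Of the 8 fibril-surface genes, 5 were lower and 0 higher. Between pericytes and VSMC only *Loxl2*, a lysyl oxidase (4.47 ± 0.596 SE, edgeR, adjusted p = 0.00064), and *Mmp2*, a gelatinase (3.07 ± 0.556 SE, edgeR, adjusted p = 0.00873), of 57 were called, both higher in pericytes (3.51%, beside 0.819% of all genes). Interstitial smooth muscle cells had 6 of 57 higher and 0 lower than VSMC (10.5%, beside 1.01% of all genes), led by *Loxl4* (7.94), *Creb3l1* (6.24) and *Col12a1* (5.39), with edgeR adjusted p of 0.0373, 0.00197 and 0.00289. The interstitial cells formed 1 sum here too, so that the calls for these 6 genes rest on the spread of the other clusters' sums. In the other fibroblast comparisons, where 0.488% to 0.957% of all genes were called, *Col12a1* alone was higher in cluster 1 than in cluster 7 (3.42, edgeR, adjusted p = 0.0403), 0 of 57 were called between clusters 6 and 1, and cluster 2 against cluster 6 had *Creb3l2* higher (2.102) and *Aspn* (-5.53), *Lox* (-2.65) and *Ddr2* (-1.72) lower, with edgeR adjusted p of 0.000508 to 0.0403. Within cluster 1, 0 of 53 were called between lines.

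The remaining fibrillar collagens were seen in under 30% of cells. *Col27a1* was seen in 488 cells (29.6%), *Col24a1* in 87 (5.29%), *Col11a2* in 14 (0.851%) and *Col2a1* in 4 (0.243%). Neither *Col27a1* nor *Col24a1* passed a test in any comparison, the nearest being *Col24a1* at the apex (log2 fold change 4.93 ± 1.35 SE, edgeR, adjusted p = 0.0592).

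Low counts of a member in mural cells have a limit in the plates. Within the 6 plates with at least 10 mural cells, the level of a member in a mural cell and the mean count of the same member in the other wells of its row and column had a mean Spearman's rho of 0.125 (*Col5a2*) to 0.234 (*Col5a1*). As a reference added after the data had been seen, *Rgs5*, a pericyte gene, had a mean rho of 0.522 over the 832 fibroblasts of the same plates. The part of neighbouring wells in the low VSMC levels was not tested.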

How the data were processed

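The authors sorted single cells into plates, prepared SmartSeq2 libraries and sequenced each plate on 1 lane as single reads of 50 bases. Reads were aligned by TopHat2 to GRCm38 and assigned to genes by featureCounts, and the deposited values are raw counts per gene and cell without molecular identifiers. Cells with few counts, few or very many genes, neither *Pdgfra* nor *Pdgfrb*, or an endothelial or immune signature had been left out by the authors before deposit, and no further doublet filter was applied. The strand setting and annotation release are not given in the sources used here, so counts of overlapping genes are uncertain. The 92 ERCC rows (1.36% of counts) stayed out of library sizes.

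Positions, symbols and exon lengths came from GENCODE (GRCm38), and promoters from RefSeq (GRCm38.p6). For each class or cluster and line with at least 10 cells (between lines, for each plate), raw counts were summed, giving 10 to 571 cells and 2202988 to 217742647 counts on genes per sum. After filterByExpr and TMM, edgeR's quasi-likelihood test was used, with Benjamini-Hochberg adjustment over all genes tested at 0.05 and the SE taken as log2 fold change over root F. Ratios were compared within plates holding at least 3 cells of each class, by exact sign flips. Alternatives were DESeq2, RLE and ERCC scaling, no filter, other minimum cells, plates as samples, the line as a block, lines in place of plates for ratios (added after the data had been seen) and leaving out each line or plate. Intervals cover counting error only. The members, lists, tests and rule for named genes (the members, up to 3 called list genes per direction by size and the 5 most similar genes) were chosen with earlier results of these data known.

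Sums of 1 line may share mice: their deviations from the mean of the class correlated at 0.152 to 0.175 between fibroblasts and mural cells in each of 3 lines, so that the line pairs them. The edgeR fits of classes and clusters were tried on simulated counts. The tools were R 4.3.3, edgeR 4.0.16, DESeq2 1.42.0, scipy 1.17.1, pandas 2.3.3, numpy 2.4.6 and Python 3.11.15.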

Additional observations from a re-analysis of the deposited data

Results flagged for a closer look

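*Col5a1* in base-to-middle fibroblasts (cluster 5) had 190.98 counts per 500000 in PdgfrbGFP mice and 157.5 to 161.998 in the other 3 lines, so that 1 line stood far from the others. The log2 difference between apex fibroblasts and clusters 1, 5 and 7 in the ratio of *Col5a3* to *Col5a1* was -6.87 on 1 Acta2GFP plate with 4 apex cells, far from the other 6 plates. Of 28 groups of values examined, 2 had such a value, and chance gives about 1 in 20.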

How the results depend on the processing

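Counts of called members in the comparisons moved by over 1.5 times in these cases. For fibroblasts against mural cells, 3 members were called against cluster 8 alone and 3 without the PdgfrbGFP line. For apex fibroblasts, 2 were called with plates in place of lines. For cluster 4 against cluster 3, 1 was called without PdgfrbGFP, and for cluster 8 against cluster 3, 2 with ERCC scaling and 3 without PdgfrbGFP. With the line as a replicate block, 5, 5 and 5 members were called in these 3 comparisons with calls, as without it, and 0 at the apex. With at least 10 cells per sum, *Col1a2* to *Col1a1* (-0.59), *Col3a1* to *Col1a1* (-0.72) and *Col5a2* to *Col5a1* (-0.89) in fibroblasts, and *Col5a2* to *Col5a1* (-0.55) and *Col5a3* to *Col5a1* (-1.60) at the apex, no longer passed, with 6 or 5 plates left. With each cell scaled first, the same ratios were -0.49, -0.71, -0.91, -0.63 and -2.56 and did not pass, and the cause was not tested. Without 1 plate they ranged from -0.61 to -0.49, -0.76 to -0.62, -1.15 to -0.89, -0.72 to -0.55 and -2.92 to -1.90, each with an unadjusted p of 0.03125, the smallest 6 plates give, and did not pass after adjustment. With 1 value per line they were -0.55, -0.75, -0.74, -0.50 and -1.96, and 3 lines cannot pass. Type V to type I at the apex was -0.16 with at least 10 cells and -0.14 by line in place of 0.01.

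Over all genes, DESeq2 called 2986 in place of 1259 for fibroblasts against mural cells, 2448 in place of 1154 at the apex, 1215 for cluster 4 and 1113 for cluster 8 against cluster 3, where edgeR called 0.819% and 1.01% of the genes tested. The replicate block called 590 for fibroblasts against mural cells. Levels taken as medians over cells moved by more than the spread in 29 of 54 cases. Low counts limit *Col5a3* and *Col11a1*, and cluster 8 has 1 line with 10 or more cells.

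Log2 fold changes that passed in neither fit changed sign as follows. ERCC scaling lowered the median of all genes by 0.48 in cluster 1 against 7, 0.19 in cluster 6 against 1, 0.18 at the apex and 0.22 for PdgfraGFP against PdgfrbGFP. With it, cluster 1 against 7 gave -0.53 for *Col3a1* (0.00024 without it), -0.35 for *Col5a2*, -0.23 for *Col5a1* and -0.48 for *Col1a2* (relative to the median -0.15, 0.027, 0.15 and -0.10), cluster 6 against 1 gave -0.15 for *Col1a2* and -0.17 for *Col5a3*, the apex gave -0.043 for *Col5a2*, and PdgfraGFP against PdgfrbGFP gave -0.0696 for *Col3a1*. For the other settings the cause was not tested. *Col3a1* in cluster 1 against 7 was -0.0012 with RLE and with DESeq2 and -0.022 with plates. In cluster 6 against 1, *Col1a2* was -0.053 with no filter and *Col5a3* -0.11 with the replicate block. Against cluster 4 alone, *Col5a3* in fibroblasts was -0.91. In cluster 5 in place of 1, Acta2GFP against PdgfrbGFP gave 0.50 for *Col3a1*, 0.33 for *Col1a2* and 0.14 for *Col1a1*, and PdgfraGFP against PdgfrbGFP gave 0.0313 for *Col5a2*, -0.28 for *Col5a1*, 0.24 for *Col1a2*, 0.0312 for *Col5a3* and 0.34 for *Col1a1*. With at least 3 cells, *Col5a2* in the latter was 0.0041. Without 1 line, *Col3a1* and *Col1a2* ranged from -0.074 to 0.052 and -0.066 to 0.11 in cluster 1 against 7, and *Col1a2* and *Col5a3* from -0.055 to 0.12 and -1.54 to 0.75 in cluster 6 against 1. Without 1 plate, *Col3a1* ranged from -0.37 to 0.24 for Acta2GFP, and for PdgfraGFP *Col3a1* ranged from -0.37 to 0.38, *Col5a2* from -0.10 to 0.066, *Col1a2* from -0.50 to 0.067 and *Col1a1* from -0.29 to 0.052. Type V to type I at the apex ranged from -0.087 to 0.065.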
